A study of Populus tremula x Populus tremuloides with 22 samples.

Results

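Transcripts were counted in stem internodes of 3-week-old hybrid aspen that overexpressed LBD4 of Arabidopsis thaliana and in wild type (WT) trees. The libraries with LBD4 in their title were set against those with WT in their title, 13 of the 22 libraries of the series. The LBD4-OE group held 8 libraries, 3 of line 11, 2 of line 14 and 3 of line 17, and the WT group held 5. The other 9 libraries carry LBD11 and entered the models as a group of their own. Per the series title the LBD genes were expressed specifically in the xylem, the wood-forming tissue, while the RNA came from stem internodes, which also hold other tissues. Fewer cells of a type and less RNA per cell therefore cannot be told apart in any value given here. All trees grew in a greenhouse, and no other allele or treatment is given in the labels. Whether the replicates of a line came from different trees is not said in the labels. The p-values thus reflect the scatter of these libraries, which may be purely technical. The transgene was not analysed here, so no library's label was checked against the level of LBD4 itself.

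LBD4 belongs to the LATERAL ORGAN BOUNDARIES DOMAIN family of plant transcription factors, which act at organ boundaries, in lateral root formation and in vascular development. In Arabidopsis LBD4 is expressed where the procambium meets the phloem, downstream of the peptide signal and receptor kinase that control divisions of vascular stem cells. In trees the corresponding stem cell layer is the cambium, which forms wood to the inside and phloem to the outside. Cells that leave it first enlarge within a primary wall and then, in the wood, lay down a secondary wall of cellulose, xylan and lignin.

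The 13 libraries held 23437445 to 41969957 counts, with 27836 to 28315 genes detected per library. In a principal component analysis of these libraries the first component, with 23.9% of the variance, set WT replicate 3 (-80.2) and line 11 replicate 1 (-37.6) apart from the others, which lay between -5.77 and 28.1. The second component, with 16% of the variance, placed the 5 WT libraries at 6.10 to 38.3 and the 8 LBD4-OE libraries at -45.3 to 2.15. Libraries also fell into 2 sets by the summed level of 9 genes on 4 chromosomes, which were chosen after their values were seen. The sum was 26.8 to 107 CPM (counts scaled to library size) in WT replicate 3 and all of line 11, and 482 to 1890 CPM in the other WT libraries and in lines 14 and 17. Of the LBD11 libraries those of LBD11 line 2 were in the low set, at 72.4, 87.6 and 32.0 CPM, and the others in the high set. Line 11 thus shared its set with a single WT library, and values of line 11 against that library alone are given for the main results. In them the spread is borrowed from the other groups, and the single WT library is also the one that stands farthest apart on the first component.

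The pooled comparison asked which stem transcripts differ between LBD4-OE and WT. Of 25626 genes tested 694 rose, or 2.71%, and 403 fell, or 1.57%, at an edgeR adjusted p under 0.05. Most changes were small, with a median of 0.41 on the log2 scale for genes that rose and -0.37 for genes that fell. Only 124 of the rises and 33 of the falls reached 2-fold.

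The genes with 2-fold rises were mostly weakly expressed in WT. Of the 124 genes 58 had a WT mean under 1 CPM, another 58 between 1 and 10 CPM and 8 above 10 CPM, with a median of 1.09 CPM. Over all 694 genes that rose the WT median was 21.3 CPM, and 66 lay under 1 CPM. In all 3 lines at once 57 of the 124 reached 2-fold, and the medians of the 124 were 1.66 in line 11, 1.09 in line 14 and 1.41 in line 17. Among them were 28 genes of 3 chromosomal runs of line 11 described further on. The 33 genes with 2-fold falls also had a low WT median, 1.83 CPM, and 12 of them had at least 2-fold lower values in each line. None of the 33 lay in these runs.

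The count of changed genes depended on a few libraries. It was 549 without WT replicate 1, 492 without WT replicate 3, 439 without WT replicate 5, 715 without line 11 replicate 2 and 534 without line 17 replicate 2. Within the larger library set, lines 14 and 17 against the other 4 WT libraries, it was 599, of which 424 were among the 1097. With the line as a random block in limma it was 163.

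Among genes whose higher group averaged 5 CPM or more, the largest pooled rises varied widely between libraries. Potri.009G129900 (chromosome 9, 10614884 to 10617295, minus strand) stood at 3.34, 3.79, 0.356, 2.97 and 2.60 CPM in WT replicates 1 to 5. In LBD4-OE it stood at 8.39, 25.6 and 24.8 CPM in line 11, at 10.6 and 13.5 CPM in line 14 and at 9.87, 52.3 and 24.1 CPM in line 17. Every LBD4-OE library was above every WT library, and WT replicate 3 was the lowest of all. Its pooled log2 fold change was 3.00 ± 0.54 (SE, edgeR adjusted p = 0.00580), with 2.88 ± 0.60 in line 11 (edgeR adjusted p = 0.0259), 2.17 ± 0.68 in line 14 (edgeR adjusted p = 0.141) and 3.43 ± 0.60 in line 17 (edgeR adjusted p = 0.00633). With the line as a random block its limma adjusted p was 0.101. Against WT replicate 3 alone the line 11 value was 5.78. Under LBD11 Potri.009G129900 stood at 46.3 ± 19.4 CPM (SD, n = 9), beside 21.2 ± 14.5 CPM in LBD4-OE (SD, n = 8).

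Potri.010G247400 (chromosome 10, 22173581 to 22176034, minus strand) stood at 1.03 to 2.65 CPM in the 5 WT libraries, with a median of 2.01 CPM. It stood at 2.72, 14.3 and 14.4 CPM in line 11, at 15.6 and 8.62 CPM in line 14 and at 11.4, 6.42 and 28.0 CPM in line 17. All 8 LBD4-OE libraries lay above WT, line 11 replicate 1 only just. Under LBD11 Potri.010G247400 stood at 0.547 ± 0.228 CPM (SD, n = 9), below WT. The gene rose in each line, by 2.51 ± 0.48 in line 11, 2.71 ± 0.52 in line 14 and 3.04 ± 0.48 in line 17 on the log2 scale (SE, edgeR adjusted p = 0.0153, 0.0213 and 0.00188), and the line 11 value against WT replicate 3 alone was 3.35.

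The falls of the pooled comparison above the same level were more modest in size. Potri.010G051800 (chromosome 10, 8344852 to 8347129, minus strand) stood at 5.54, 5.51, 6.06, 5.19 and 5.51 CPM in WT replicates 1 to 5. In LBD4-OE it stood at 3.66, 2.32 and 1.5 CPM in line 11, at 1.82 and 4.41 CPM in line 14 and at 1.34, 2.38 and 1.05 CPM in line 17. WT was tight and LBD4-OE spread over a wide range below it, without overlap. Under LBD11 Potri.010G051800 stood lower, at 0.636 ± 0.146 CPM (SD, n = 9). It fell by 1.27 on the log2 scale in the pooled comparison (SE 0.24, edgeR adjusted p = 0.00421), passed in line 11 at -1.17 ± 0.30 and in line 17 at -1.80 ± 0.31, and had -0.84 ± 0.34 in line 14 (SE, edgeR adjusted p = 0.0412, 0.00159 and 0.229).

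Potri.017G051100 (chromosome 17, 3648262 to 3649463, plus strand) had 174, 103, 31.2, 165 and 107 CPM in WT replicates 1 to 5, and 28.9 to 77.2 CPM in the 8 LBD4-OE libraries. The groups overlapped, because WT replicate 3 was below 7 of the 8 LBD4-OE libraries. The pooled log2 fold change was -1.31 ± 0.31 (SE, edgeR adjusted p = 0.0260), and no single line passed, with values of -1.25, -1.41 and -1.31. The pooled call was lost under 9 of the 28 alternatives, among them without WT replicate 1, 4 or 5 or line 17 replicate 2 (edgeR adjusted p = 0.0702, 0.0602, 0.0502 and 0.0508). Within the library set line 11 stood 0.65 above WT replicate 3 on the log2 scale. Under LBD11 Potri.017G051100 stood at 52.2 ± 16.2 CPM (SD, n = 9).

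**Figure D1:**
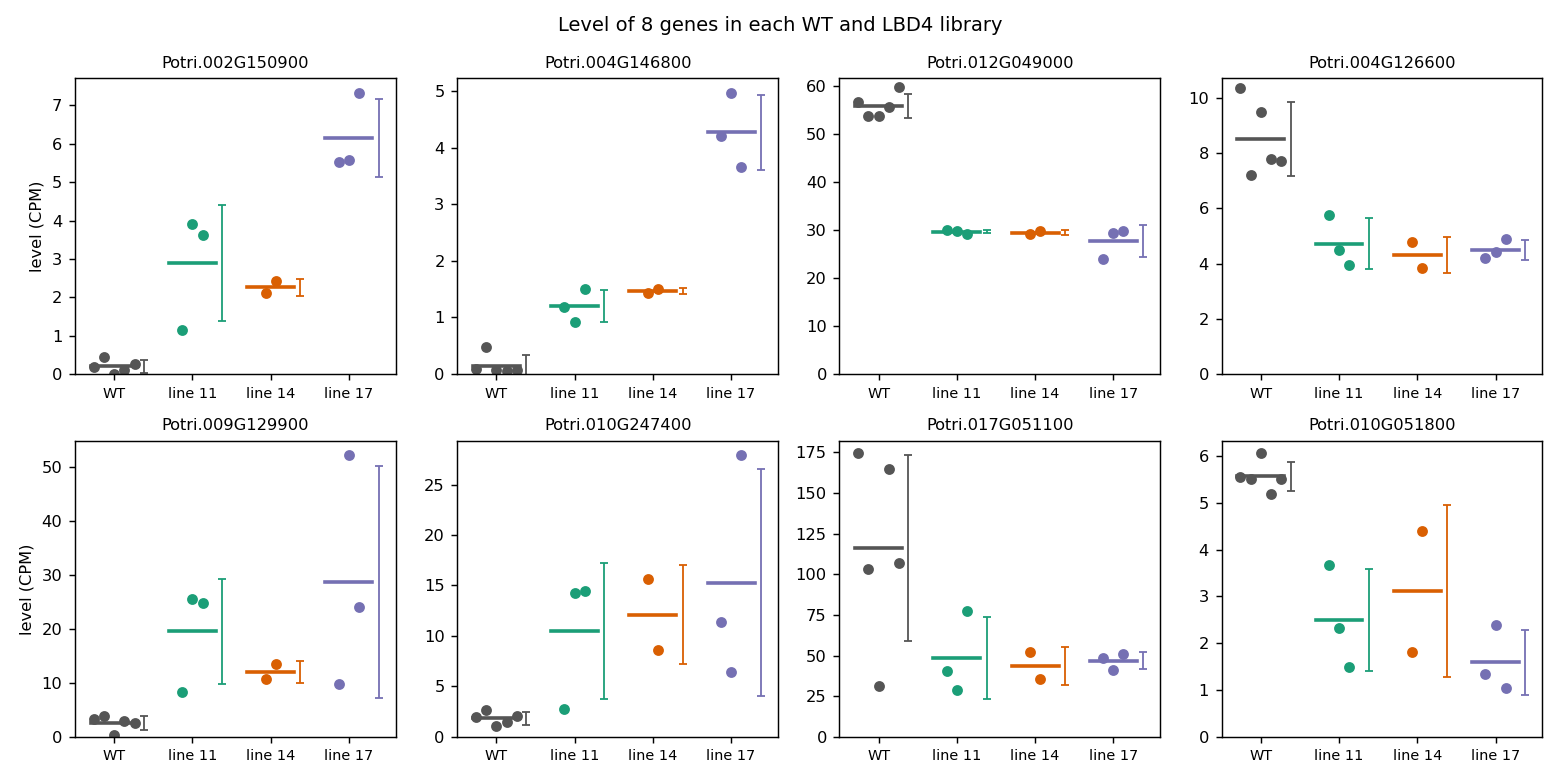
Level in CPM (y axis, from 0) of 8 genes in each WT and LBD4-OE library (points), with the mean of each group (bar) and its SD (whisker, cut at 0). Potri.012G049000 is at 24.0 to 29.9 CPM in all 8 LBD4-OE libraries and at 53.8 to 59.8 CPM in WT, whereas Potri.009G129900 ranges from 8.39 to 52.3 CPM in LBD4-OE.

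Each line was then compared with WT by itself over 26271 genes. In line 11 313 genes rose and 197 fell, together 1.94% of those tested. Line 14, with 2 libraries, had 133 that rose and 54 that fell, 0.712% in all. Line 17 had 427 that rose and 260 that fell, or 2.62%. Rises of at least 2-fold numbered 117, 20 and 113 in lines 11, 14 and 17, and falls of that size 24, 7 and 56.

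These counts also moved with single libraries. Line 11 had 1073 changed genes without WT replicate 3, 312 without WT replicate 4, 228 without WT replicate 5, 104 without its replicate 2 and 162 without its replicate 3. For line 14 the count was 403 without WT replicate 2, and 5 and 13 without its replicate 1 or 2, where the remaining library was assumed to vary like the other groups. Line 17 had 396 without its replicate 1 and 187 without its replicate 2. Against WT replicate 3 alone, the WT library of its own set, the count for line 11 was 3342. As that arm is 1 library, with the spread taken from the other groups, this number describes the distance from that library and cannot separate line 11 from it.

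The genes that hold in all 3 lines were those past the threshold with the same sign in each line against WT, 44 genes or 0.167% of those tested. Of these 36 rose and 8 fell. The 3 comparisons share the 5 WT libraries, so the count is a description. Without WT replicate 1 or 5 it was 28 or 29, without line 11 replicate 2 or 3 it was 16 or 19, and without line 14 replicate 1 or 2 it was 4 or 6. In every alternative in which the 3 lines were fitted the 44 genes kept their sign in each line. None of the 44 had overlapping LBD4-OE and WT libraries, so leaving out libraries could hardly change a sign. The kept signs are therefore no test of stability.

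For all 44 genes the 8 LBD4-OE libraries lay wholly above or wholly below the 5 WT libraries, a pattern that 504 genes, or 1.92%, showed among all tested. As the members were called on these same libraries, that is part of their choice. The gap was often narrow. The lowest LBD4-OE library exceeded the highest WT library by a median factor of 1.16 among the 36 genes that rose, with a range of 1.01 to 2.56, and 5 had a factor above 1.5. For the 8 that fell the lowest WT library exceeded the highest LBD4-OE library by a median factor of 1.15, with a range of 1.07 to 1.80.

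The 36 genes that rose were moderate in size of change. Their median log2 fold changes were 0.52 in line 11, 0.61 in line 14 and 0.71 in line 17, and single values ran from 0.29 to 4.79. In 24 of them no line reached 2-fold, and 6 reached it in every line. These 6 had WT means of 0.151 to 5.70 CPM and LBD4-OE means of 2.42 to 21.3 CPM. Line 17 had the largest of the 3 values in 25 of the 36 genes, line 14 in 9 and line 11 in 2. A test of the difference among lines passed for 2 of them. The WT mean of the 36 had a median of 20.0 CPM, with 25 above 10 CPM. The genes lay on 15 chromosomes, with the most, 7, on chromosome 2, which held 1859 of the 26271 genes tested. Clustering of the 36 was not tested.

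The 8 genes that fell had medians of -0.63 in line 11, -0.83 in line 14 and -0.61 in line 17, and values from -1.05 to -0.32. None reached 2-fold in every line. Their WT means were 8.52 to 149 CPM, each lay on a chromosome of its own, and 0 differed among the lines at an adjusted p under 0.05 by edgeR.

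Within library sets the 44 genes kept their signs, which follows from the lack of overlap between their LBD4-OE and WT libraries. The 36 genes that rose had medians of 0.58 in line 14 and 0.65 in line 17 against the other 4 WT libraries, with 34 passing in each, and all 8 that fell passed in both lines. Line 11 had medians of 0.68 and -0.73 against WT replicate 3, values that rest on 1 WT library. The same WT and LBD4-OE libraries enter these values, so they are no independent repeat.

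**Figure D2:**
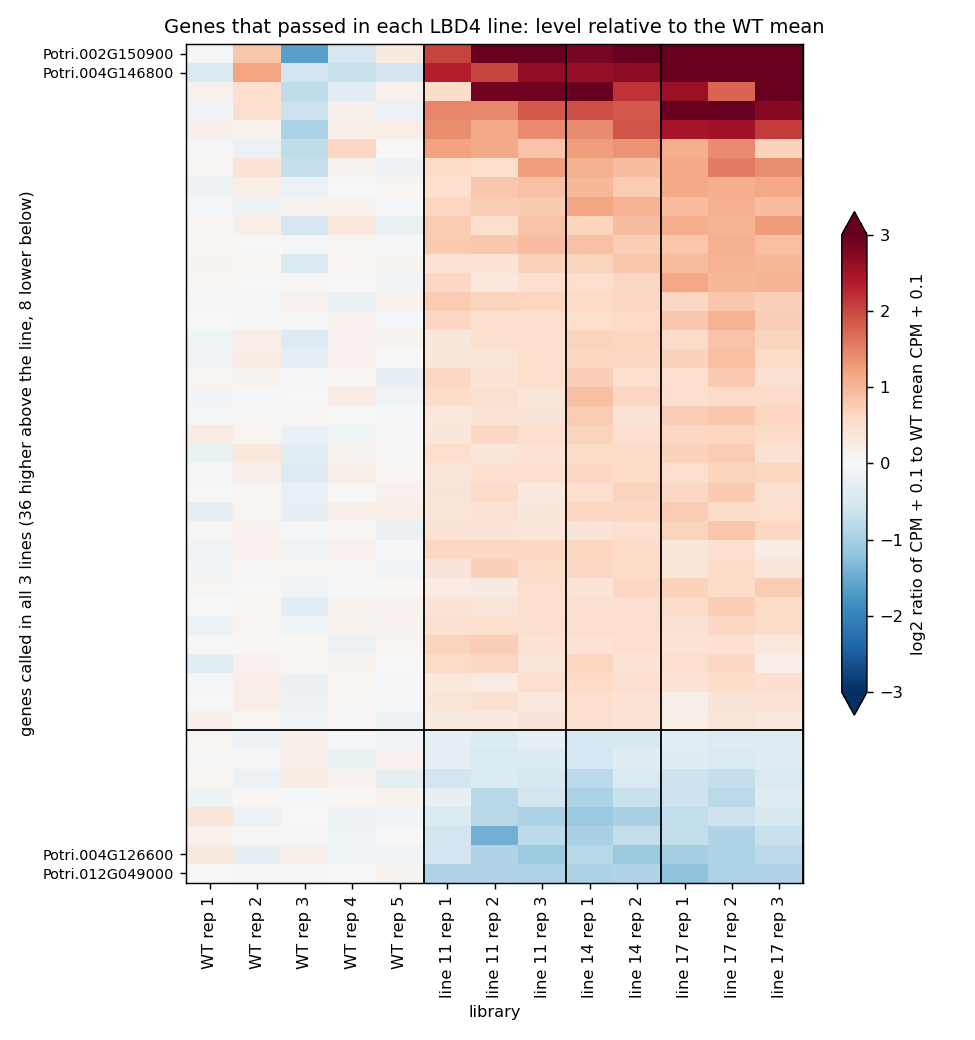
Level of the 44 genes called in each LBD4 line (rows, sorted by pooled log2 fold change) in 13 libraries (columns), as the log2 ratio to the WT mean with a pseudocount of 0.1 CPM on both, and with colours ending at 3 and -3. The 36 genes above the line are higher and the 8 below it lower in every LBD4-OE library than in every WT library, and a few rows at the top carry the largest ratios.

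The strongest rise held by all 3 lines was that of Potri.002G150900 (chromosome 2, 11524547 to 11525962, plus strand). It was nearly silent in WT, at 0.198, 0.449, 0, 0.115 and 0.274 CPM in replicates 1 to 5, from 38 counts in all. In line 11 it stood at 1.15, 3.91 and 3.62 CPM, in line 14 at 2.10 and 2.42 CPM, and in line 17 at 5.54, 5.58 and 7.34 CPM, from 1073 counts over the 8 libraries. The lowest LBD4-OE library was above the highest WT library, and the 3 libraries of line 17 were above those of the other lines. Log2 fold changes were 3.72 ± 0.49 in line 11, 3.35 ± 0.54 in line 14 and 4.79 ± 0.48 in line 17 (SE, edgeR adjusted p = 5.29e-04, 0.00459 and 4.42e-06). Its difference among lines had an edgeR adjusted p of 0.411. WT replicate 3 had 0 counts, so no fold of line 11 against that library alone is given. Under the other construct, LBD11, it stood at 0.131 ± 0.098 CPM (SD, n = 9), beside 0.207 ± 0.169 CPM in WT (SD, n = 5).

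Potri.004G146800 (chromosome 4, 16909827 to 16912115, minus strand) had a similar pattern. In WT it stood at 0.0848, 0.473, 0.0713, 0.0577 and 0.0684 CPM, from 29 counts in all, with replicate 2 above the rest. Line 11 had 1.19, 0.923 and 1.5 CPM, line 14 1.43 and 1.5 CPM, and line 17 4.20, 4.97 and 3.65 CPM. Lines 11 and 14 covered the same range and line 17 stood higher, but the difference among lines did not pass (edgeR adjusted p = 0.247). Log2 fold changes were 2.85 ± 0.54, 3.13 ± 0.58 and 4.67 ± 0.51 in lines 11, 14 and 17 (SE, edgeR adjusted p = 0.00954, 0.0104 and 9.74e-06). Against WT replicate 3 alone the line 11 value was 4.01. The gene stood at 0.196 ± 0.133 CPM under LBD11 (SD, n = 9). In line 14 the calls of Potri.002G150900 and Potri.004G146800 were lost without either of its replicates, with edgeR adjusted p-values of 0.107 and 0.0788 for the first gene and 0.193 and 0.117 for the second.

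Among the genes that fell, Potri.012G049000 (chromosome 12, 4593772 to 4596118, plus strand) had similar levels in the 3 lines. Its WT libraries stood at 56.7, 53.8, 53.8, 55.6 and 59.8 CPM. Line 11 had 29.9, 29.9 and 29.3 CPM, line 14 29.1 and 29.8 CPM, and line 17 24.0, 29.5 and 29.9 CPM. The 8 libraries of 3 lines lay within a few CPM of each other, far below WT and without overlap. It fell by 0.91, 0.92 and 1.01 on the log2 scale in lines 11, 14 and 17 (SE 0.10, 0.11 and 0.10, edgeR adjusted p = 2.56e-05, 1.33e-04 and 9.87e-07), and its call held in each line under all 22 alternatives run. Within library sets the values were -0.86, -0.94 and -1.02. Under LBD11 it stood at 30.2 ± 3.75 CPM (SD, n = 9).

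Potri.004G126600 (chromosome 4, 12375608 to 12376774, minus strand) went from 10.4, 7.22, 9.48, 7.78 and 7.73 CPM in WT to 5.76, 4.49 and 3.94 CPM in line 11, 4.78 and 3.85 CPM in line 14, and 4.20, 4.42 and 4.89 CPM in line 17. All LBD4-OE libraries were below all WT libraries and the lines overlapped each other. Log2 fold changes were -0.85 ± 0.18, -0.98 ± 0.21 and -0.92 ± 0.17 (SE, edgeR adjusted p = 0.0152, 0.0224 and 0.00466). The line 11 call was lost without its replicate 2 or 3 (edgeR adjusted p = 0.0945 and 0.0766), and that in line 14 without its replicate 1 or 2 or WT replicate 1 (edgeR adjusted p = 0.276, 0.311 and 0.0515). Under LBD11 it stood at 2.94 ± 0.78 CPM (SD, n = 9). Levels under LBD11 are given beside those of LBD4-OE because both are read against the same WT libraries, and no difference between the constructs was tested. Of the 36 genes that rose in all 3 lines, Potri.002G150900, Potri.010G247400 and Potri.002G011700 had log2 fold changes below 0 under LBD11 against WT (-0.69, -1.74 and -0.16). The rest of the 36 were above 0 and the 8 that fell were below 0, though not all passed the threshold. All these genes were chosen for their distance from the same WT libraries, which by itself favours the same sign under LBD11. The share of equal signs over all genes tested was not computed, so these signs are a description and no agreement between the constructs. The files pair none of these identifiers with a gene name.

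Genes of wood formation were followed through 7 lists by identifier, with 74 of 75 listed genes in the files and all 74 tested. Which genes belong to each list comes from general knowledge of poplar genes and could not be checked here, so lists are described as a whole. The change that passed for most members was that of the primary wall cellulose synthases, the catalytic subunits that make cellulose in growing cells. Of 11 members 5 rose and 0 fell, where 2.71% of all genes tested rose. The 5 had log2 fold changes of 0.27 to 0.60. All 11 values were above 0, where 49.6% of all genes tested were. The median was 0.27, beside -0.0018 over all genes tested.

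The summed level of these 11 genes was 1544, 1909, 1458, 1808 and 1774 CPM in WT replicates 1 to 5. In line 11 it was 1915, 2013 and 1989 CPM, in line 14 2129 and 2157 CPM, and in line 17 1931, 2117 and 2053 CPM. All 8 LBD4-OE libraries were above the highest WT library, line 11 replicate 1 only just, and WT replicate 3 was the lowest. The mean was 1698 ± 190 CPM in WT (SD, n = 5), beside 2038 ± 91.4 CPM in LBD4-OE (SD, n = 8), a ratio of 1.20. In the single lines 1 member passed in line 11, 2 in line 14 and 1 in line 17, with medians of 0.23, 0.28 and 0.29. Of all genes tested 1.19%, 0.506% and 1.63% rose in these lines. Without WT replicate 3 only 1 member passed and the median was 0.24, within the larger library set 2 passed at a median of 0.24, and without WT replicate 1 or 5 or line 17 replicate 2 the count was 2. It was 3 without line 11 replicate 2 or line 14 replicate 1. It was also 1 without line 14 and with the line as a random block in limma, and 9 where library set entered the model.

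Secondary wall genes changed little as a group. At an unadjusted p under 0.05 by edgeR, 2995 of all 25626 genes tested were higher and 2582 lower in the pooled comparison. None of the 5 secondary wall cellulose synthases passed by edgeR in the pooled comparison, although 1 reached an unadjusted p under 0.05 upward. DESeq2 and limma voom also called 0. Their median was 0.14, and their summed level was 4359 ± 504 CPM in WT (SD, n = 5), beside 4630 ± 564 CPM in LBD4-OE (SD, n = 8), with overlapping libraries. Of 22 enzymes of lignin monomer synthesis edgeR and limma voom called 0 and DESeq2 called 2 lower, where DESeq2 called 761 of all genes lower. By edgeR 1 of the 22 was higher and 2 were lower at an unadjusted p under 0.05. The lignin median was -0.01, and summed levels were 15912 to 19897 CPM in WT and 14251 to 19779 CPM in LBD4-OE. Among the 6 xylan synthases 0 passed by edgeR, DESeq2 or limma voom and 0 had an unadjusted p under 0.05, with a median of 0.01.

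Few regulators passed the test. Of 14 secondary wall transcription factors 1 fell and 0 rose by edgeR, where 1.57% of all genes fell and 2.71% rose. Their median was -0.07 with 3 of the 14 values above 0, where 49.6% of all genes tested were above 0. At an unadjusted p under 0.05 by edgeR 4 of them were lower and 1 higher, beside 2582 lower and 2995 higher of all 25626 genes tested. Their summed level was 298 to 330 CPM in WT and 235 to 304 CPM in LBD4-OE, and 6 of the 8 LBD4-OE libraries were below the lowest WT library. Of 13 genes that regulate the cambium or vascular patterning 1 rose and 1 fell, with 11 of the 13 values above 0 and 0.13 as the median. They summed to 2854 ± 159 CPM in WT (SD, n = 5), beside 3105 ± 178 CPM in LBD4-OE (SD, n = 8). In 5 of the 8 LBD4-OE libraries this sum was above the highest WT library. Without WT replicate 5 the fall among the transcription factors was lost, and without WT replicate 3 that among the cambium regulators. Both falls were also lost with the line as a random block in limma, and the cambium rise in the fit of the 13 libraries alone. Without line 17 the rise and the fall among the cambium regulators were both lost. With the replicate number as a block all 3 calls were lost. With single libraries left out the calls numbered 0 to 2 for the transcription factors that fell, 0 to 1 for those that rose, 1 to 2 for cambium regulators that rose and 0 to 1 for those that fell. Of 3 circadian clock genes, which stood for the state of the samples, 0 passed by edgeR, DESeq2 or limma voom, 1 was lower at an unadjusted p under 0.05, and the sums overlapped at 262 to 326 CPM in WT and 230 to 332 CPM in LBD4-OE.

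The lists differed in value between lines, mainly through line 14. Secondary wall cellulose synthases summed to 5479 and 5370 CPM in the 2 libraries of line 14, above every WT library (3564 to 4834 CPM). The sums were 4068 to 4837 CPM in line 11 and 3968 to 4593 CPM in line 17, both across the WT range. The lignin list had medians of -0.08 in line 11, 0.19 in line 14 and -0.12 in line 17, and 1 member fell in line 11 and 2 in line 17, where 0.75% and 0.99% of all genes fell. Of the 6 xylan synthases 1 rose in line 14, where 0.506% of all genes rose. A test of the difference among lines by edgeR, adjusted over all genes, passed for 0 members of any list. At an unadjusted p under 0.05 it gave 10 of 22 lignin enzymes, 3 of 6 xylan synthases and 2 of 5 secondary wall cellulose synthases, where 9.95% of all genes tested had such a p. DESeq2 called 3, 1 and 1 members of these lists, where it called 245 of all genes, and limma voom called 0, where it called 44 of all genes.

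**Figure D3:**
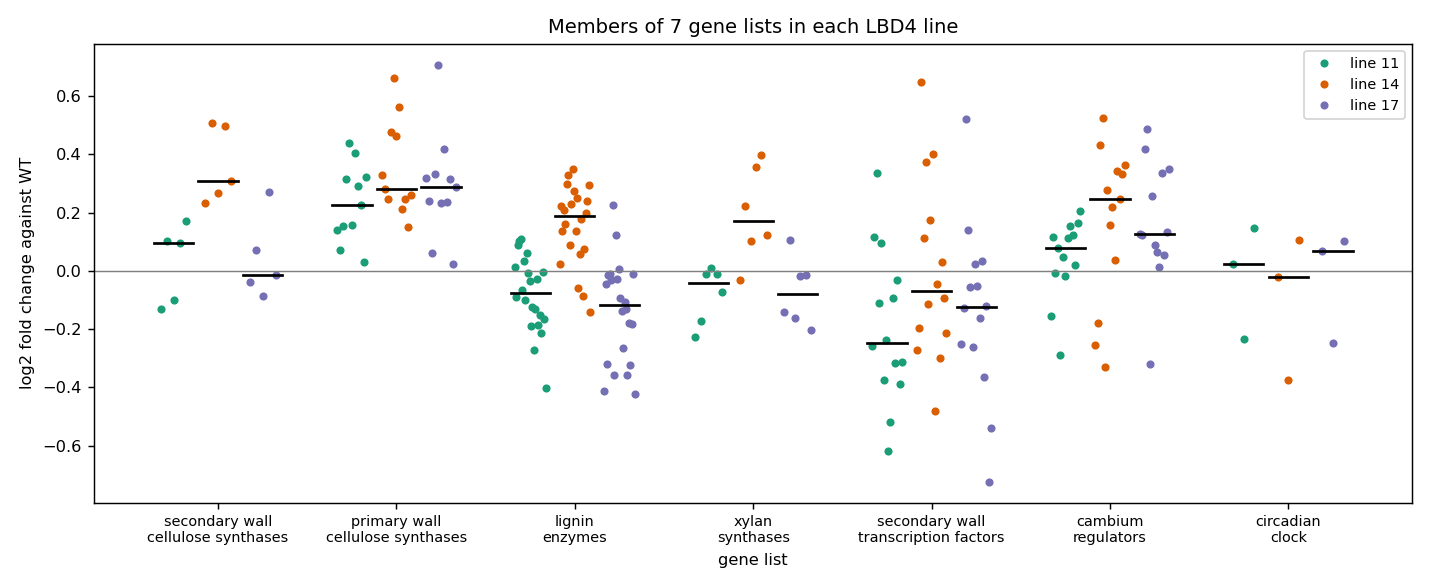
Log2 fold change against WT (y axis) of each member of 7 gene lists in lines 11, 14 and 17 (points), with the median of each list and line (black bar). All 11 primary wall cellulose synthases lie above 0 in each line, while the lignin enzymes have a median of 0.19 in line 14 and of -0.08 and -0.12 in lines 11 and 17.

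Differences among the 3 lines were tested in a contrast without WT, with the spread estimated over all 22 libraries. They passed for 51 genes, 0.194% of those tested, with a median ratio of 2.23 between the highest and the lowest line mean. Line 11 was the lowest in 27 of the 51, line 14 in 11 and line 17 in 13. Of the 1097 genes changed in the pooled comparison 8 differed among lines. The count was 150 without WT replicate 3, and 33, 26, 23, 24, 25 and 31 without line 11 replicate 2 or 3, line 14 replicate 1 or 2 and line 17 replicate 1 or 2. Against the mean of the other lines, line 11 had 9 genes higher and 18 lower, line 14 had 11 higher and 4 lower, and line 17 had 20 higher and 11 lower, 63 in all. Without WT replicate 3 these were 190, without line 11 replicate 2 35, without line 14 replicate 1 or 2 18 or 17, and without line 17 replicate 1, 2 or 3 30, 33 or 41.

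In line 11 the largest differences upward were those of Potri.006G103900 (chromosome 6, 7978832 to 7981340, minus strand) and Potri.016G124700 (chromosome 16, 12845284 to 12848798, minus strand). Potri.006G103900 stood at 38.8, 35.7 and 31.1 CPM in line 11, at 2.48 and 3.04 CPM in line 14, at 6.30, 3.33 and 4.61 CPM in line 17 and at 2.48 to 10.2 CPM in WT. Potri.016G124700 stood at 132, 109 and 84.6 CPM in line 11, at 8.31 and 11.3 CPM in line 14, at 23.7, 20.2 and 15 CPM in line 17 and at 15 to 61.7 CPM in WT. For both genes line 11 was above all other LBD4-OE and WT libraries and line 14 at or near the bottom. The log2 differences from the other lines were 3.28 ± 0.35 and 2.96 ± 0.41 (SE, edgeR adjusted p = 3.22e-04 and 0.00687). That of Potri.016G124700 was lost without either replicate of line 14 (edgeR adjusted p = 0.0922 and 0.071). Against WT replicate 3 alone line 11 stood at 3.11 and 2.09 on the log2 scale (edgeR adjusted p = 0.00921 and 0.0734).

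The largest differences downward in line 11 belonged to genes that define the library sets. Potri.014G186524 (chromosome 14, 15473612 to 15473861, minus strand) was at 0.414 to 0.500 CPM in line 11 and at 10.8 to 20.7 CPM in lines 14 and 17. Potri.008G224138 (chromosome 8, 18985100 to 18985595, plus strand) was at 1.06 to 1.62 CPM in line 11 and at 19.5 to 44.0 CPM in lines 14 and 17. In LBD11 line 2 the first gene stood at 0.135 to 0.470 CPM and the second at 0.850 to 1.23 CPM. In WT replicate 3 they stood at 0.249 and 0.428 CPM, and in the other WT libraries at 9.56 to 15.9 and 21.9 to 31.0 CPM. Both are thus as low in that WT library as in line 11, and their log2 differences from the other lines, -5.25 ± 0.86 and -4.63 ± 0.81 (SE, edgeR adjusted p = 0.0256 and 0.0408), cannot be told apart from the library set. The first call was lost under 9 and the second under 15 of 21 alternatives, for both without any 1 of the line 11 replicates (edgeR adjusted p = 0.101, 0.172 and 0.105, and 0.129, 0.208 and 0.151).

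Line 14 was set apart upward by Potri.019G078100 (chromosome 19, 11868165 to 11872218, minus strand), with 5.86 and 5.12 CPM beside 1.03 to 2.06 CPM in the other 6 LBD4-OE libraries and 1.30 to 1.44 CPM in WT. Potri.016G006500 (chromosome 16, 318034 to 322100, minus strand) had 127 and 146 CPM in line 14, 72.6 to 87.4 CPM in line 17, 45.7 to 65.1 CPM in line 11 and 70.2 to 104 CPM in WT. Under LBD11 the first stood at 1.03 to 3.27 CPM and the second at 62.4 to 135 CPM, which reaches the level of line 14. The first was close to WT in lines 11 and 17. The second moved both ways against WT, rising in line 14 by 0.68 ± 0.15 and falling in line 11 by 0.63 on the log2 scale (SE 0.14, edgeR adjusted p = 0.0305 and 0.0236). Their log2 differences from the other lines were 1.80 ± 0.24 and 1.06 ± 0.14 (SE, edgeR adjusted p = 0.00105 for each).

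Downward in line 14 stood Potri.015G045700 (chromosome 15, 4464789 to 4468210, minus strand), with 6.08 and 6.17 CPM beside 9.12 to 16.9 CPM in the other lines and 11.2 to 17.4 CPM in WT. Potri.001G220100 (chromosome 1, 22964827 to 22975725, minus strand) had 27.4 and 28.5 CPM in line 14, 42.6 to 51.3 CPM in the other lines and 37.9 to 50.1 CPM in WT. For both the pair of line 14 libraries was below all 11 others. Log2 differences were -1.06 ± 0.18 and -0.76 ± 0.10 (SE, edgeR adjusted p = 0.0143 and 0.00105). Without line 14 replicate 1 the calls of the 4 genes named for this line were lost (edgeR adjusted p = 0.162, 0.0852, 0.822 and 0.196 in the order given), and without its replicate 2 those of the last 3 (edgeR adjusted p = 0.106, 0.341 and 0.0695).

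Line 17 stood out upward for Potri.014G043000 (chromosome 14, 2781180 to 2783585, minus strand), with 5.88, 4.57 and 6.32 CPM beside 1.15 to 2.39 CPM in the other lines and 1.07 to 1.55 CPM in WT. Potri.005G130700 (chromosome 5, 10040752 to 10044594, minus strand) had 14.5, 15.9 and 8.64 CPM in line 17, 4.59 and 5.65 CPM in line 14, 2.76 to 3.85 CPM in line 11 and 1.25 to 2.94 CPM in WT. In both genes line 17 was above all other LBD4-OE and WT libraries and line 14 lay between line 17 and line 11. Log2 differences from the other lines were 1.74 ± 0.22 and 1.66 ± 0.24 (SE, edgeR adjusted p = 6.62e-04 and 0.00187), and both calls held under all 21 alternatives run.

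Downward in line 17 stood Potri.006G245600 (chromosome 6, 24619403 to 24621907, plus strand), with 2.70, 5.13 and 4.27 CPM beside 6.40 to 11.2 CPM in the other lines and 7.04 to 8.55 CPM in WT. Potri.014G096000 (chromosome 14, 6266251 to 6268051, plus strand) had 18.3, 17.3 and 26.2 CPM in line 17, 34.0 to 43.2 CPM in the other lines and 38.2 to 59.4 CPM in WT. In both, line 17 was below all other LBD4-OE and WT libraries. Under LBD11 Potri.006G245600 stood at 7.47 to 16.2 CPM, while Potri.014G096000 stood at 21.8 to 27.9 CPM, across the level of line 17. Log2 differences were -1.03 ± 0.19 and -0.94 ± 0.14 (SE, edgeR adjusted p = 0.0221 and 0.00465). The first call was lost without line 17 replicate 1 or 3 or either line 14 replicate (edgeR adjusted p = 0.233, 0.109, 0.172 and 0.0545), and the second without line 17 replicate 1 or 2 (edgeR adjusted p = 0.0669 and 0.0923).

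**Figure D4:**
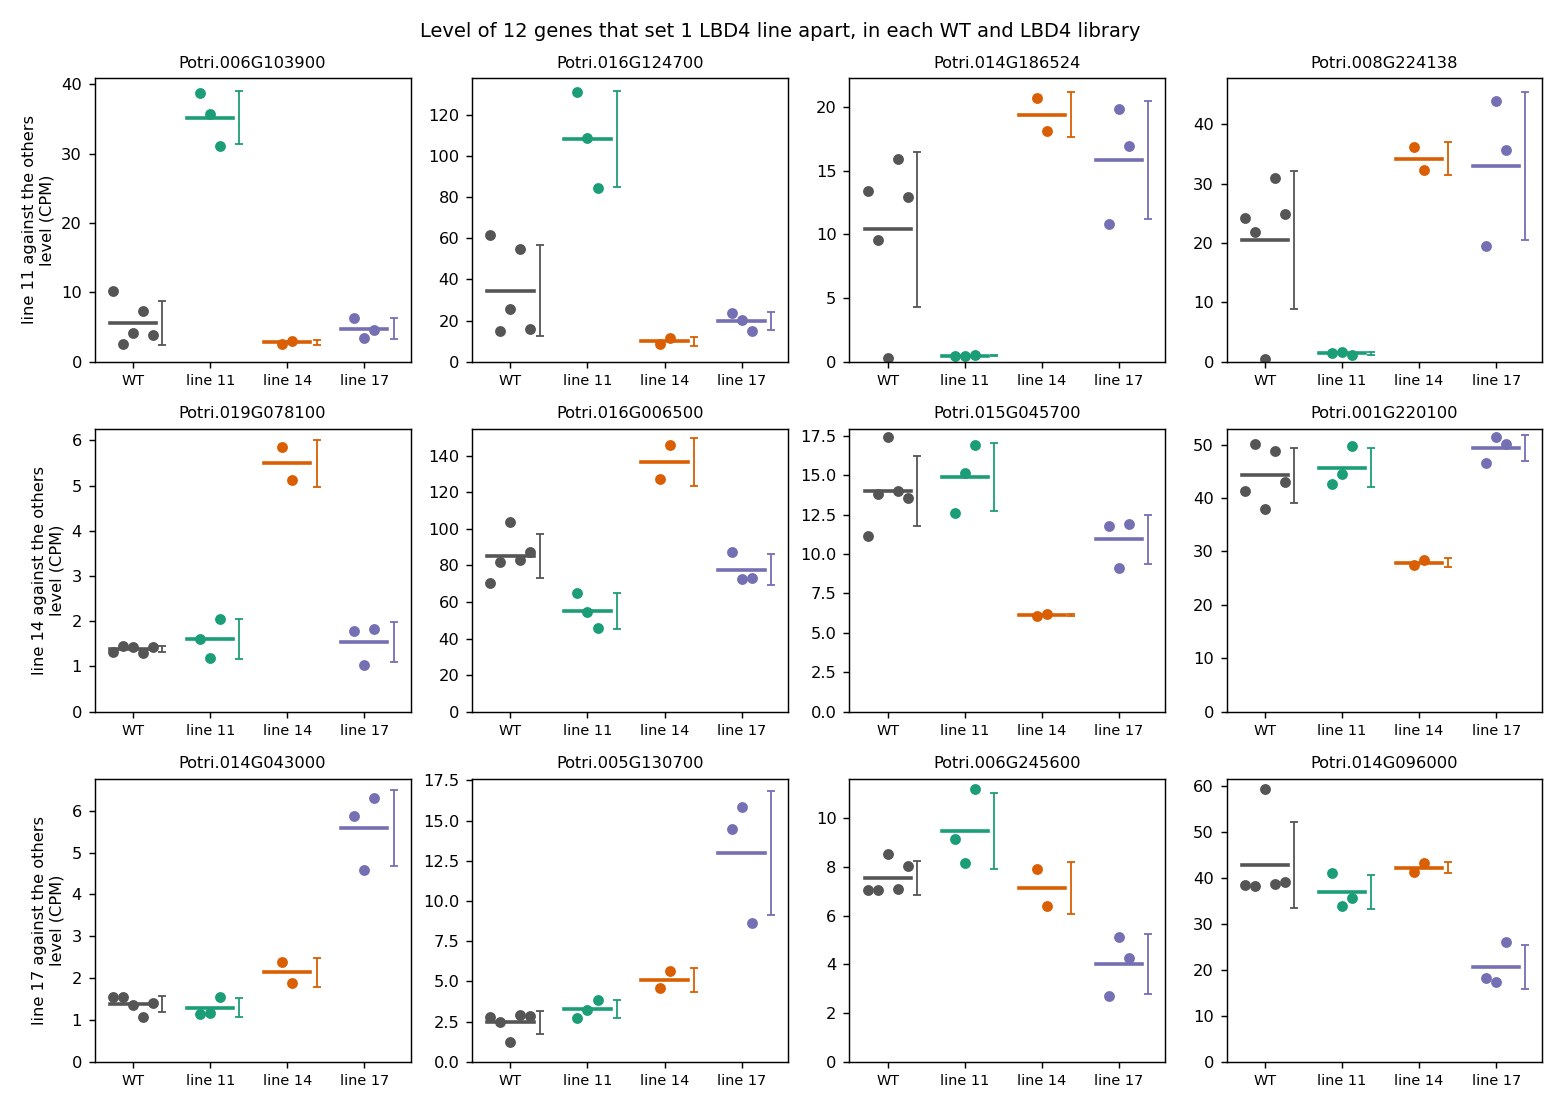
Level in CPM (y axis, from 0) of 12 genes that set 1 LBD4 line apart, 4 genes for each line, in each WT and LBD4-OE library (points), with group means (bars) and SD (whiskers). In Potri.014G186524 and Potri.008G224138 WT replicate 3 is as low as line 11, at 0.249 and 0.428 CPM.

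Part of the change in line 11 was clustered along chromosomes. A run was a stretch in which windows of 8 neighbouring tested genes held at least 4 called in 1 direction, a rule set after the values were seen. Line 11 had 3 runs of raised genes, line 14 had 0 and line 17 had 1. The 3 runs of line 11 held 60 of its 313 genes that rose, or 19.2%, and all 60 rose at least 2-fold, beside 57 rises of that size in the rest of the genome. Of the 44 genes that hold in all 3 lines 0 lay in the runs of line 11 and 1 in that of line 17.

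The first run lay on chromosome 7 from 6906001 to 7181695, where 18 of 33 tested genes rose and 0 fell past the threshold. Potri.007G062061, Potri.007G062081 and Potri.007G062282 inside it had line 11 values of -2.63, -3.10 and -1.88 that did not pass. The called genes of this run had a median of 1.66 on the log2 scale in line 11. The same genes had medians of 0.69 in line 14 and 0.59 in line 17, where 0 passed. The second lay on chromosome 11 from 14383465 to 14433251, with 7 of 8 tested genes called, a median of 2.16 in line 11 and medians of 0.59 and 0.78 in lines 14 and 17. The third lay on chromosome 13 from 15567206 to 15657495, with 35 of 44 tested genes called at a median of 2.46, and medians of 0.85 and 1.01 in lines 14 and 17.

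The called genes of the chromosome 13 run summed to 219, 84.8, 119, 156 and 88.7 CPM in WT replicates 1 to 5. They summed to 439, 682 and 911 CPM in line 11, to 228 and 236 CPM in line 14 and to 122, 403 and 266 CPM in line 17. Line 11 was above all other LBD4-OE and WT libraries, while line 17 spread across WT and beyond. The same genes summed to 312 to 1125 CPM in the 9 LBD11 libraries, with a median of 618 CPM, so high sums were not confined to line 11. The chromosome 7 run ordered the libraries alike, with 204 to 393 CPM in line 11, 101 to 107 CPM in line 14 and 53.9 to 161 CPM in line 17. Its sums were 34.6 to 92.0 CPM in WT and 121 to 471 CPM under LBD11. In the chromosome 11 run line 11 overlapped line 17, with 39.9, 63.1 and 79.0 CPM beside 16.7, 41.4 and 24.8 CPM. That run stood at 22.4 to 24.2 CPM in line 14, 11.1 to 25.1 CPM in WT and 32.6 to 101 CPM under LBD11. Among the 60 genes called inside the 3 runs of line 11, 3 differed among lines at an edgeR adjusted p under 0.05. This is a larger share than the 0.194% of all genes tested, but the 60 were chosen as called in line 11. Neighbouring or similar gene copies may share reads, so the genes of a run are not independent measurements. The run of line 17, on chromosome 1 from 48122701 to 48188050, held 4 called of 6 tested genes with a median of 0.70.

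**Figure D5:**
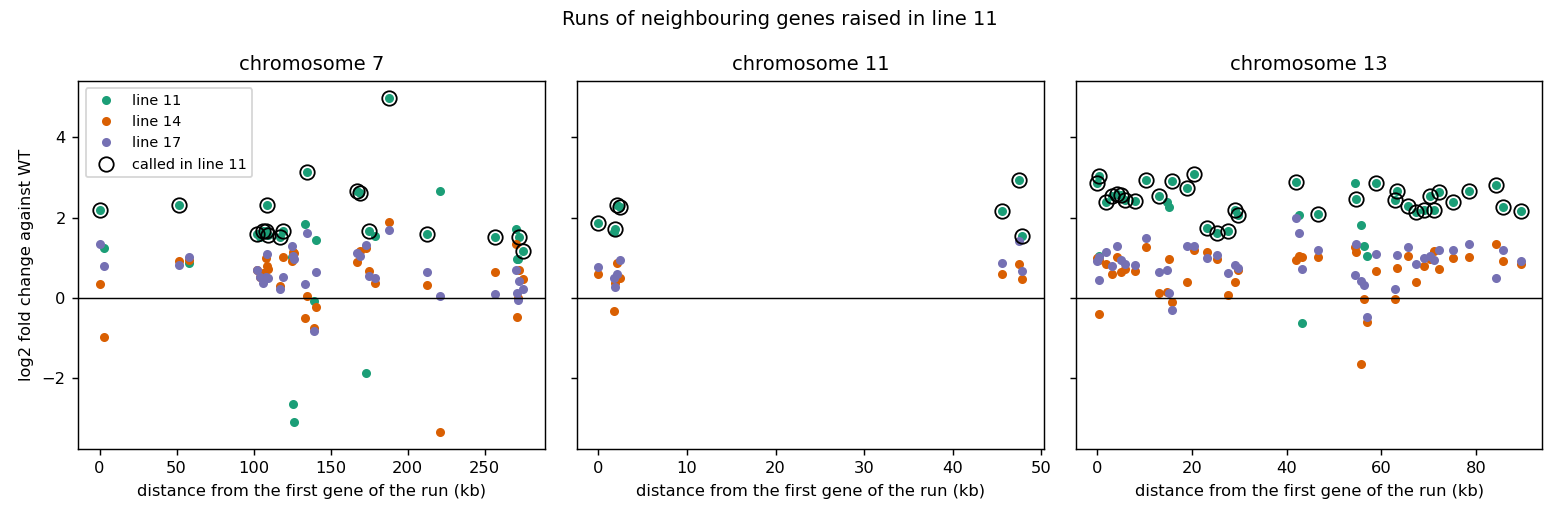
Log2 fold change against WT (y axis) of each tested gene in the 3 runs of line 11 by its distance in kb from the first gene of the run (x axis), for lines 11, 14 and 17, with a ring around genes called in line 11. On chromosome 13 the called genes have a median of 2.46 in line 11, and medians of 0.85 and 1.01 in lines 14 and 17.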

How the data were processed

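Per the labels' protocols, poly(A) RNA of stem internodes was sequenced as read pairs (Illumina HiSeq). The authors deposited raw read counts per gene from HTSeq, per the labels, for 34699 Potri identifiers. The submitters' processing notes also name MultiQC, Trimmomatic, HISAT2 and Cufflinks, with no versions, and the genome build and strand setting are not given in the sources used here. Reads of a hybrid were counted on gene models of a related poplar, so diverged, near-identical or overlapping genes can be miscounted, and coordinates are as in the files, with no base stated.

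Groups came from the sample titles. The deposited counts entered edgeR 4.0.16 under R 4.3.3 without change (TMM scaling, default filter with a minimum count of 10 and a total of 15, quasi-likelihood F test), with 3 construct means or 7 group means over all 22 libraries, so that they share 1 estimate of the spread. A gene was called at a Benjamini-Hochberg adjusted p under 0.05. CPM used TMM-scaled library sizes. The script was tested on simulated data. No library was merged with another, since all 17 replicate pairs were further apart than counting error allows (chi-square over degrees of freedom 5.78 or more).

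The comparison, the gene lists, the rule for named genes and the alternatives were chosen with earlier results of these data known. With no gene names in the files, the genes named are the 2 highest and 2 lowest per comparison (by the smallest change over the 3 lines at a mean of at least 1 CPM, by the pooled change, or by the difference from the other lines at 5 CPM), and list members are counted. Lists that needed product names (phloem, photosynthesis, epidermis, heat shock) were not analysed. Alternatives, with limma 3.58.1 and DESeq2 1.42.0 among them, are given at the end.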

Additional observations from a re-analysis of the deposited data

Results flagged for a closer look

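Single libraries stood apart for 5 of the 20 genes named, out of 40 groups examined by the gap of the highest or lowest library to its neighbour relative to the range of the group. Chance gives such a gap in about 1 of 20 groups. WT replicate 2 was at 0.473 CPM for Potri.004G146800, where the next WT library was at 0.0848 CPM. Line 17 replicate 1 was at 24.0 CPM for Potri.012G049000, below the next LBD4-OE library at 29.1 CPM. Line 17 replicate 2 was at 52.3 CPM for Potri.009G129900, above the next at 25.6 CPM. WT replicate 3 was at 1.25 CPM for Potri.005G130700, where the next was at 2.46 CPM, and at 59.4 CPM for Potri.014G096000, where the next was at 39.1 CPM.

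Of the 12 genes named for 1 line, 11 passed the joint test of a difference among the 3 lines. The genes were chosen by their difference from the other lines in the same libraries, so these p-values follow from that choice and are a description. The edgeR adjusted p-values were 0.00105 for Potri.006G103900, 0.0107 for Potri.016G124700 and 0.0406 for Potri.014G186524, named for line 11. They were 0.00176 for Potri.019G078100, 0.00146 for Potri.016G006500, 0.00668 for Potri.015G045700 and 0.00176 for Potri.001G220100, named for line 14. For line 17 they were 9.93e-04 for Potri.014G043000, 0.00176 for Potri.005G130700, 0.0180 for Potri.006G245600 and 0.00925 for Potri.014G096000. Potri.008G224138 had an edgeR adjusted p of 0.0626.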

How the results depend on the processing

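Of 628 pairs of a named gene's comparison and an alternative 557 kept direction and call, 71 kept only the direction and 0 reversed. Counts of called genes are given in the order pooled comparison, line 11, line 14, line 17, all 3 lines, difference among lines, each line against the others and members of the 7 lists. They were 1097, 510, 187, 687, 44, 51, 63 and 8 as reported, 1952, 1199, 715, 1259, 120, 245, 246 and 14 with DESeq2, and 445, 205, 46, 370, 14, 15, 21 and 5 in a fit of the 13 libraries alone. Without WT replicate 3 and line 11 replicate 1 the pooled count was 671, line 14 had 370, 186 genes differed among lines, 211 between a line and the others, and 5 list members were called. With the line as a random block in limma (consensus correlation 0.083) the pooled count was 163 with 2 list members, and it was 1040 in limma voom without the block. Without line 14 or 17 the pooled count was 667 or 579, with 3 list members without line 17, and equal weights for the lines gave 13 list members. In alternatives added after seeing the data, library set as a term gave 2305 genes and 19 list members, the larger set alone 599 genes, and line 11 against the 1 WT library of its set 3342 genes. RLE scaling and both other filters changed no count by more than 1.5 times. The cause of these shifts was not tested.

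Leaving out single libraries gave 439 to 1549 genes in the pooled comparison, 104 to 1073 in line 11, 5 to 403 in line 14, 187 to 818 in line 17, 4 to 63 in all 3 lines, 23 to 150 among lines, 17 to 190 between a line and the others, and 4 to 12 list members.

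With the replicate number as a replicate block the counts, in the same order, were 298, 92, 34, 408, 12, 27, 31 and 2. Same-numbered libraries of different groups had deviations that correlated at -0.41 to 0.32 over 15 pairs, with 2 pairs over 0.1. For libraries of different number the values were -0.37 to 0.40 over 46 pairs, with 12 over 0.1. Whether libraries of the same number share more than the number was not tested.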
